A study of Mus musculus with 5 samples.

Results

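The ventral forebrain homeobox factors examined here are 9 genes, Gsx1, Gsx2, Dlx1, Dlx2, Dlx5, Dlx6, Nkx2-1, Nkx6-2 and Lhx6, which were picked by symbol from the 25415 genes listed in the RNA-seq of mouse neural stem cells (NSCs) and STO cells. NSCs (n = 2) were primary cells taken from the cortex of E12.5 mouse embryos and grown as a monolayer in medium with EGF, bFGF, heparin and B27, at passages 5 to 8. STO cells (n = 3) are an established line of SIM mouse embryonic fibroblasts, grown in serum and used above passage 30. Both cell types were labelled C57BL/6, and no transgene or treatment is given for either. For STO cells that label stands beside a described SIM origin, so a shared strain background is not established. The labels do not say whether replicates were separate cultures, so p-values rest on the spread between these samples. The fit pooled that spread in part over genes of like level, so the SE and p of a gene do not come from its own values alone. Levels are given as FPKM, fragments scaled for the length of the transcript and the depth of the library, so that levels of different genes can be set side by side. The deposited intervals implied between 1.52e+07 and 2.23e+07 fragments per library.

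All 9 genes encode homeodomain transcription factors that pattern the ventral telencephalon, the embryonic source of basal ganglia and of GABAergic interneurons. Gsx1 and Gsx2 act in dividing progenitors of the ganglionic eminences, and Gsx2 lies upstream of the Dlx genes. Dlx1 and Dlx2 lie side by side on 1 chromosome and act together as progenitors leave the ventricular zone, while the linked pair Dlx5 and Dlx6 lies downstream of them. Nkx2-1 specifies the medial ganglionic eminence, Lhx6 is its target in migrating interneurons, and Nkx6-2 marks the border between the medial and lateral eminences. Outside the brain, Dlx genes and Lhx6 are also used in mesenchyme of the branchial arches.

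The labels were checked against marker genes. Of 10 neural stem cell markers, 10 were higher in NSCs, among them Sox2 at 308 and 276 FPKM and Fabp7 at 2783 and 3041 FPKM in NSCs, both listed at 0 in every STO library. Vim, another of the 10, was not called after quantile normalization (difference -0.02, adjusted p = 0.8026). Of 11 fibroblast markers, 10 passed the filter and were lower in NSCs. Over all genes tested, 43.7% were higher and 41.9% lower in NSCs. The summed level of the 11 fibroblast markers was 10.8 to 11.2 FPKM in NSCs and 1733 to 1833 FPKM in STO cells. The summed level of 8 neuron markers was 145 to 147 FPKM in NSCs and 12.4 to 12.9 FPKM in STO cells. Most of the NSC sum was Map2, at 100 and 102 FPKM, and Tubb3 was not called (limma adjusted p = 0.4767). The summed level of 6 astrocyte markers was 466 to 474 FPKM in NSCs and 25.2 to 26.9 FPKM in STO cells. Of 9 microglial and endothelial markers, 8 stayed under a mean of 1 FPKM in both cell types. The other, Tmem119, stood at 9.49, 9.885 and 9.60 FPKM in STO cells and was lower in NSCs (difference -3.40, limma adjusted p = 1.407e-08). Fibroblast and astrocyte markers, and most neuron and oligodendrocyte lineage markers, thus differed alongside every difference below. Their part in those differences was not tested.

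The 5 factors with a mean of at least 1 FPKM in either cell type were Gsx1, Gsx2, Dlx1, Dlx2 and Lhx6. The 250 bases before their starts are shown because these are the genes whose levels separated the cell types, and the pairs Gsx1 with Gsx2 and Dlx1 with Dlx2 can be read against each other. Sequences are those of RefSeq on GRCm38.p6, 5′ to 3′ on the strand of the gene. Capitals mark the TATA box TATAAA, the CCAAT box, the homeodomain core TAATTA and the E-box CACGTG, each searched on both strands, and no match in these windows overlapped another kind.
Gsx1: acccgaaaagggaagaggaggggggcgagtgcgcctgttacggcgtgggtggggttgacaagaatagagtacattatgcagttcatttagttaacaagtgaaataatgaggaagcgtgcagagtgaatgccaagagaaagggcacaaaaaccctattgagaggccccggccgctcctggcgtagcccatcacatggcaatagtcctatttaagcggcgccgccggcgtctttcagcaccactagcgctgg
Gsx2: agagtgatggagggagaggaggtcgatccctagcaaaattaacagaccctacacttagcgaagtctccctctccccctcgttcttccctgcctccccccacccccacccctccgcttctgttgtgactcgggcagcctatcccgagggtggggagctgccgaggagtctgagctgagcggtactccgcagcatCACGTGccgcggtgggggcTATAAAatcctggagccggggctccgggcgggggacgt
Dlx1: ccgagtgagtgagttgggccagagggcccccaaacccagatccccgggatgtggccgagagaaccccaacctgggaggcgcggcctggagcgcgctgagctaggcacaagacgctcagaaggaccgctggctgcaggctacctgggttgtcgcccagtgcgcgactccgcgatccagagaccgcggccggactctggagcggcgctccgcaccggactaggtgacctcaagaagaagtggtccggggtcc
Dlx2: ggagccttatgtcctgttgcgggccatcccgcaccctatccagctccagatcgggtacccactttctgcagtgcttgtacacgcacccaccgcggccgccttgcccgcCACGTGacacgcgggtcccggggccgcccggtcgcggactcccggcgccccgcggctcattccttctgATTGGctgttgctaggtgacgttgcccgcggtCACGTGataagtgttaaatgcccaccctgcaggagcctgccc
Lhx6: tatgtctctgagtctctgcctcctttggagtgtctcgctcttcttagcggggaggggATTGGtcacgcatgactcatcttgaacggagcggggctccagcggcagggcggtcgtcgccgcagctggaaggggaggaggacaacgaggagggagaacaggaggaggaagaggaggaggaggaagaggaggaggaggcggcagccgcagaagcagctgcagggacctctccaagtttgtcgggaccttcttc

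The windows lay at chr5:147188446-147188695 (plus strand) for Gsx1, chr5:75075351-75075600 (plus) for Gsx2, chr2:71529195-71529444 (plus) for Dlx1, chr2:71546755-71547004 (minus) for Dlx2 and chr2:36105409-36105658 (minus) for Lhx6, where 2 of the listed Lhx6 transcripts start. Gsx2 held a TATAAA that begins 38 bases before the start and a CACGTG that begins 57 bases before it, while none of the searched words was found in the Gsx1 window. TATAAA was present in 12.4% of 32851 RefSeq promoter windows of this length and CACGTG in 6.02%. Dlx2 held 2 copies of CACGTG and 1 CCAAT box on the opposite strand, and none of these words was found in the Dlx1 window. Lhx6 held 1 CCAAT box on the opposite strand, a word present in 33.9% of all windows, and TAATTA, present in 4.84%, was found in none of the 5. All 5 windows were richer in CpG than the median window, which held 6: Gsx1 held 15, Gsx2 16, Dlx1 22, Dlx2 24 and Lhx6 14. GC content ran from 54.0% in Gsx1 to 68.0% in Dlx1, against a median of 52.4% over all windows. Lhx6 has other RefSeq starts, whose windows are not shown and differed. The window at chr2:36104061-36104310 held 7 CpG at 46.0% GC, with a CCAAT box on the strand of the gene. The window at chr2:36104534-36104783 held 17 CpG at 57.2% GC and none of the searched words.

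NSCs and STO cells used different members of the family. Gsx1 and Gsx2 were higher in NSCs, and Dlx1, Dlx2 and Lhx6 were higher in STO cells. Of the 5 factors tested, 5 passed an adjusted p of 0.05 in limma, of which 2 were higher and 3 lower in NSCs. Across all 12293 genes tested, 85.6% passed the same threshold, 43.7% as higher and 41.9% as lower in NSCs, so being called was common among all genes. Values of the 5 factors did not overlap between the cell types, as was the case for 89.9% of all genes tested. Each of the 5 had a mean of at least 1 FPKM in only 1 cell type, the one where it was higher. They passed the filter through that cell type, so their calls and lack of overlap are not separate support for a difference. The other 4 factors, Dlx5, Dlx6, Nkx2-1 and Nkx6-2, stayed under 1 FPKM in every library and were not tested.

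**Figure D1:**
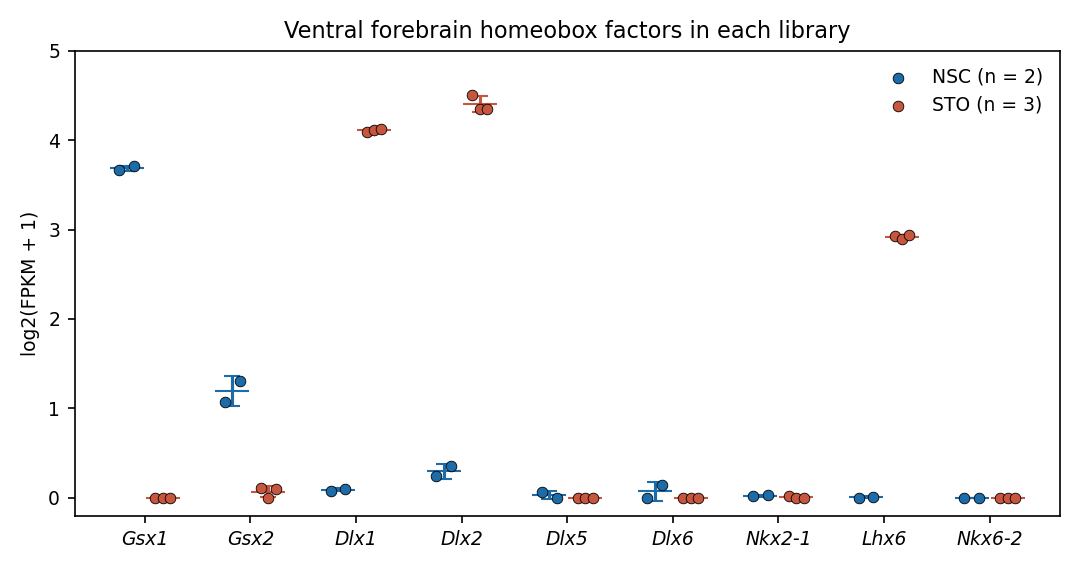
Level of each ventral forebrain homeobox factor in log2(FPKM + 1), 1 point per library, for NSCs (blue, n = 2) and STO cells (red, n = 3), with the mean as a line and the SD as a bar. Gsx1 and Gsx2 are higher in both NSC libraries, Dlx1, Dlx2 and Lhx6 are higher in all 3 STO libraries, and the other 4 factors sit near 0 in all 5.

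Gsx1 (chr5:148000272-148002522 in mm9), a progenitor factor of the ganglionic eminences, stood at 11.7 and 12.1 FPKM in the NSC libraries and was listed at 0 in all 3 STO libraries. The NSC libraries lay close together, and the cell types did not overlap. The NSC values rested on 643 and 728 fragments, while 3 fragments would have given 0.0754, 0.0659 and 0.0497 FPKM in STO replicates 1, 2 and 3. Against the highest of these floors, the NSC mean of 11.9 ± 0.277 FPKM (SD, n = 2) was at least 157-fold higher. The fitted difference was 3.69 in log2(FPKM + 1) (SE 0.045, limma adjusted p = 8.329e-09), a size that depends on the pseudocount since STO was listed at 0. In bulk RNA, fewer cells with a transcript and less of it per cell cannot be told apart, here and in every difference below.

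Gsx2 (chr5:75471626-75473918 in mm9), the relative of Gsx1 that patterns the lateral ganglionic eminence, was much lower. It stood at 1.11 and 1.48 FPKM in NSCs, and at 0.0799, 0 and 0.0699 FPKM in STO replicates 1, 2 and 3. Both NSC libraries were above every STO library, in which at most 3.996 fragments were implied against 56.0 and 84.0 in NSCs. The mean was 1.29 ± 0.265 FPKM (SD, n = 2) in NSCs and 0.0499 ± 0.0435 (SD, n = 3) in STO cells. The difference was 1.12 in log2(FPKM + 1) (SE 0.079, limma adjusted p = 2.011e-05). After quantile normalization of the 5 libraries it was 0.33 (adjusted p = 0.1111), so the call did not hold under that scaling. Within NSCs, Gsx1 stood 10.5 and 8.14 times above Gsx2 in replicates 1 and 2.

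Dlx1 (chr2:71367502-71372038 in mm9), which acts with Dlx2 in differentiation of GABAergic neurons, showed the opposite pattern to Gsx1. It stood at 0.0572 and 0.0731 FPKM in NSCs and at 15.99, 16.3 and 16.4 FPKM in STO replicates 1, 2 and 3. All STO libraries were high and close together, and both NSC libraries were near the level of 3 fragments, with 3.82 and 5.52 fragments implied. The mean was 16.2 ± 0.223 FPKM (SD, n = 3) in STO cells and 0.0651 ± 0.0112 (SD, n = 2) in NSCs, a ratio of 249. The difference between NSCs and STO cells was -4.02 in log2(FPKM + 1) (SE 0.049, limma adjusted p = 8.329e-09).

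Dlx2 (chr2:71381465-71384811 in mm9), whose locus lies 9.43 kb from that of Dlx1, moved the same way. It stood at 0.180 and 0.282 FPKM in NSCs and at 21.8, 19.4 and 19.4 FPKM in STO replicates 1, 2 and 3. The STO libraries were all high and the NSC libraries low, with 14.0 and 23.7 fragments implied in NSCs, so Dlx2 was listed above 3 fragments in both. The STO mean of 20.2 ± 1.36 FPKM (SD, n = 3) was 87.5 times the NSC mean of 0.231 ± 0.0719 FPKM (SD, n = 2). The difference was -4.11 in log2(FPKM + 1) (SE 0.075, limma adjusted p = 3.443e-08). The ratio of Dlx2 to Dlx1 was 3.15 and 3.85 in the NSC libraries and 1.36, 1.19 and 1.19 in the STO libraries, the NSC ratios resting on the few Dlx1 fragments given above.

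Dlx1as, an RNA transcribed from the strand opposite Dlx1 across an overlapping locus, moved with the pair. It was listed at 0 in both NSC libraries and at 3.82, 3.27 and 3.07 FPKM in STO replicates 1, 2 and 3. All 3 STO libraries held it, and the ratio of Dlx1 to Dlx1as in them was 4.18, 5.00 and 5.34. The difference was -2.13 in log2(FPKM + 1) (limma adjusted p = 8.704e-07). Libraries came from a stranded kit, but whether counting used the strand is not given in the sources used here, so reads of Dlx1 and Dlx1as may have been split between them.

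Dlx5 (chr6:6827801-6832068 in mm9) and Dlx6 (chr6:6813334-6817970), the linked pair downstream of Dlx1 and Dlx2, were at or near 0 throughout. Dlx5 was listed at 0.0479 FPKM in NSC replicate 1, from 1.33 fragments, and at 0 in the other 4 libraries. Dlx6 was listed at 0.108 FPKM in NSC replicate 2, from 2.95 fragments, and at 0 in the other 4. Both stayed below 3 fragments in every library, STO cells included, where Dlx1 and Dlx2 rested on 666 to 1642 fragments each. A level of 3 fragments would have been 0.0993 to 0.150 FPKM for Dlx5 and 0.110 to 0.167 FPKM for Dlx6 in STO cells. Dlx6os1, the RNA antisense to Dlx6, was listed at 0.00749 FPKM in NSC replicate 1 and at 0 elsewhere.

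Lhx6 (chr2:35937473-35960928 in mm9), a LIM homeodomain factor of migrating interneurons and of arch mesenchyme, exceeded 3 fragments in the STO libraries and in neither NSC library. It was listed at 0 and 0.00910 FPKM in NSC replicates 1 and 2 and at 6.58, 6.44 and 6.65 FPKM in STO replicates 1, 2 and 3. The STO libraries held 279, 336 and 447 fragments with a mean of 6.56 ± 0.106 FPKM (SD, n = 3), while NSC replicate 2 held less than 1. The difference was -2.91 in log2(FPKM + 1) (SE 0.047, limma adjusted p = 1.973e-08).

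The 5 listed Lhx6 transcripts divided this level unevenly between libraries. In STO replicate 1, NM_001083125 stood at 2.73 FPKM, NM_008500 at 1.80, NM_001083127 at 1.24 and NM_001083126 at 0.813. In STO replicates 2 and 3, NM_001083125 stood at 3.70 and 3.69 FPKM and NM_008500 at 2.74 and 2.96, and the other transcripts were listed at 0. The 2 that were seen in every STO library share the start whose upstream bases are shown above. STO replicate 1 thus stood apart in the division between transcripts and not in the sum. Taken as a single transcript, the difference between NSCs and STO cells was -2.12 (adjusted p = 0.0001209).

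**Figure D2:**
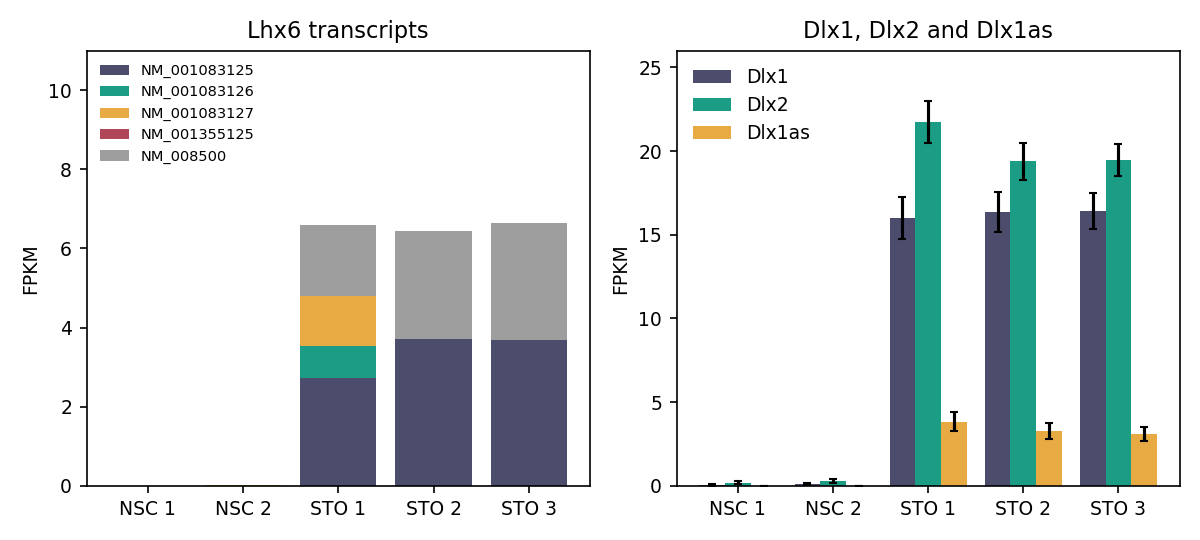
Left, FPKM of each listed Lhx6 transcript per library, stacked to the sum used for the gene. Right, FPKM of Dlx1, Dlx2 and Dlx1as per library. Bars run to the upper bound of the deposited confidence interval and the same distance below the value. The 3 STO libraries reach 6.44 to 6.65 FPKM for Lhx6, by 4 transcripts in replicate 1 and 2 in the others, and Dlx1as is listed at 0 in both NSC libraries.

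Nkx2-1 (chr12:57632924-57637895 in mm9), which lies upstream of Lhx6 in the medial ganglionic eminence, was at or near 0 in both cell types. It was listed at 0.0112 and 0.0205 FPKM in NSCs and at 0.0157, 0 and 0 FPKM in STO cells. No library held more than 1.99 fragments, and the cell types overlapped, so Lhx6 was listed at 6.44 to 6.65 FPKM in libraries with 1.00, 0 and 0 fragments of Nkx2-1. Of 10 genes known as thyroid and lung targets of Nkx2-1, 10 stayed under a mean of 1 FPKM in both cell types. Nkx6-2 (chr7:146765275-146768696) was listed at 0 in all 5 libraries for both of its transcripts.

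The order of the factors differed between the cell types. In NSCs, Gsx1 was followed by Gsx2, 9.16 times lower, then Dlx2, 5.61 times lower again, then Dlx1, 3.54 times lower, with no overlap between neighbours in this order. The ranges of Dlx1, Dlx6, Dlx5 and Nkx2-1 then overlapped one another or touched 0, and these were not separated. In STO cells, Dlx2 was 1.24 times above Dlx1, which was 2.48 times above Lhx6, and each range lay apart from the next. Gsx1 exceeded 76.9% of all listed genes in NSCs, and Gsx2 exceeded 56.3%. In STO cells, Dlx2 exceeded 83.8%, Dlx1 80.8% and Lhx6 69.0%.

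The 9 factors added up to 13.1 and 14.0 FPKM in NSCs and to 44.4, 42.2 and 42.6 FPKM in STO cells. Gsx1 and Gsx2 made up 97.7% and 96.5% of that sum in NSCs and 0.180%, 0% and 0.164% in STO cells. Dlx1, Dlx2 and Lhx6 made up 1.82% and 2.59% in NSCs and 99.8%, 100% and 99.8% in STO cells. Each cell type thus drew its sum almost wholly from genes that were low in the other.

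Patterns most like that of Gsx1, by the mean absolute difference in log2(FPKM + 1) over the 5 libraries among 12293 genes, belonged to Maneal (0.00911), Adgrb3 (0.00993), Cacna1h (0.0103), Rragb (0.0109) and Elovl2 (0.0141). All 5 were listed at 0 in every STO library and stood between 11.5 and 12.6 FPKM in NSCs.

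Factors that work with this family in the ventral forebrain were examined next. Of 29 partner factors, 23 passed the filter, of which 13 were higher in NSCs, 9 were lower and 1 was not called. Over all genes tested, 43.7% were higher and 41.9% lower in NSCs, so both directions were common. The median difference of the 23 was 1.23 in log2(FPKM + 1), against 0.023 over all genes tested. With the 6 genes listed at 0 in STO cells set to 3 fragments, it was 1.18. Olig1 and Olig2, factors of ventral progenitors and of the oligodendrocyte lineage, stood at 964 and 1108 FPKM and at 499 and 494 FPKM in NSCs and were listed at 0 in all STO libraries. Sox6, which acts in interneurons after Lhx6, stood at 29.5 and 30.4 FPKM in NSCs and between 0.0208 and 0.0422 in STO cells, the opposite direction to Lhx6 (difference 4.90, adjusted p = 5.714e-09). Satb1, another factor of interneuron maturation, stood at 8.56 and 8.13 FPKM in NSCs and was listed at 0 in STO cells. Satb1, Tshz2, Gbx2, Six3, Olig1 and Olig2 were the 6 tested partners listed at 0 in every STO library.

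Among the partners lower in NSCs, Nr2f2, a factor of the caudal ganglionic eminence and of mesenchyme, stood at 0.0679 and 0.200 FPKM in NSCs and at 70.4, 78.4 and 66.7 in STO cells (difference -6.01, adjusted p = 1.521e-08). Ebf1, a factor of striatal neurons and of mesenchyme, stood at 0.232 and 0.318 FPKM in NSCs and at 16.2, 16.9 and 15.2 in STO cells (difference -3.75). Zeb2, which acts downstream of Dlx1 and Dlx2, stood at 14.0 and 14.0 FPKM in NSCs and at 11.9, 14.1 and 11.9 in STO cells, and was not called (difference 0.14, adjusted p = 0.1625), although without STO replicate 2 it was (0.22, adjusted p = 0.01677). Lhx8, the close relative of Lhx6, was listed at 0 in all 5 libraries.

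Products of GABAergic neurons were mostly low, with a few exceptions in NSCs. Of 22 listed, 13 stayed below the filter, 7 were higher in NSCs and 2 were lower. The shares over all genes tested were 43.7% higher and 41.9% lower. The median difference of the products tested was 2.27, against 0.023 over all genes tested. The 7 higher in NSCs all passed the filter only through NSCs, so their count and this median partly reflect how genes entered the fit. Gad1, which makes GABA, stood at 7.37 and 7.72 FPKM in NSCs and was listed at 0 in STO cells, at least 134-fold higher against 3 fragments (adjusted p = 1.432e-08). Its relative Gad2 stood at 0.1696 and 0.119 FPKM in NSCs. The vesicular transporter Slc32a1 did not exceed 0.0138 FPKM in any library, and Sst was listed at 0 in all 5.

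Nxph1, a neurexophilin of interneurons, stood at 19.3 and 23.1 FPKM in NSCs and was listed at 0 in STO cells (difference 4.47, adjusted p = 2.933e-08). Erbb4, the neuregulin receptor of migrating interneurons, stood at 3.64 and 4.06 FPKM in NSCs and at 0.00368, 0 and 0 in STO cells. The chemokine receptors that steer interneurons moved in opposite directions. Cxcr4 stood at 3.04 and 3.19 FPKM in NSCs and between 0.0321 and 0.128 in STO cells (difference 1.92, adjusted p = 2.55e-07). Ackr3 stood at 6.06 and 5.82 FPKM in NSCs and at 35.0, 32.0 and 33.6 in STO cells (difference -2.31, adjusted p = 1.465e-07). Penk was the other product lower in NSCs (difference -0.995, adjusted p = 3.992e-05).

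Of 16 genes of the mesenchyme in which Dlx genes act outside the brain, 5 passed the filter and all 5 were lower in NSCs. Of all genes tested, 41.9% were lower in NSCs. The median difference of the 5 was -3.49, against 0.023 over all genes tested. Twist1, Runx2 and Msx1 passed the filter only through STO cells, so the 5 calls and this median partly reflect how genes entered the fit. Twist1, a factor of cranial mesenchyme, stood at 0.137 and 0.303 FPKM in NSCs and at 60.4, 54.1 and 57.1 in STO cells (difference -5.58, adjusted p = 1.444e-08). Runx2, the factor of bone precursors, stood at 0.161 and 0.0583 FPKM in NSCs and at 17.9, 18.5 and 14.8 in STO cells (difference -4.02, adjusted p = 1.741e-07). Prrx1 and Prrx2, of limb and face mesenchyme, differed by -3.22 and -3.49, and Msx1, a partner of Dlx proteins in the arches, by -2.82. The other 11 genes stayed below the filter, and 5 of them, Msx2 and Barx1 included, were listed at 0 in all 5 libraries. Twist1 and Prrx1 are also fibroblast markers in the list used above.

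**Figure D3:**
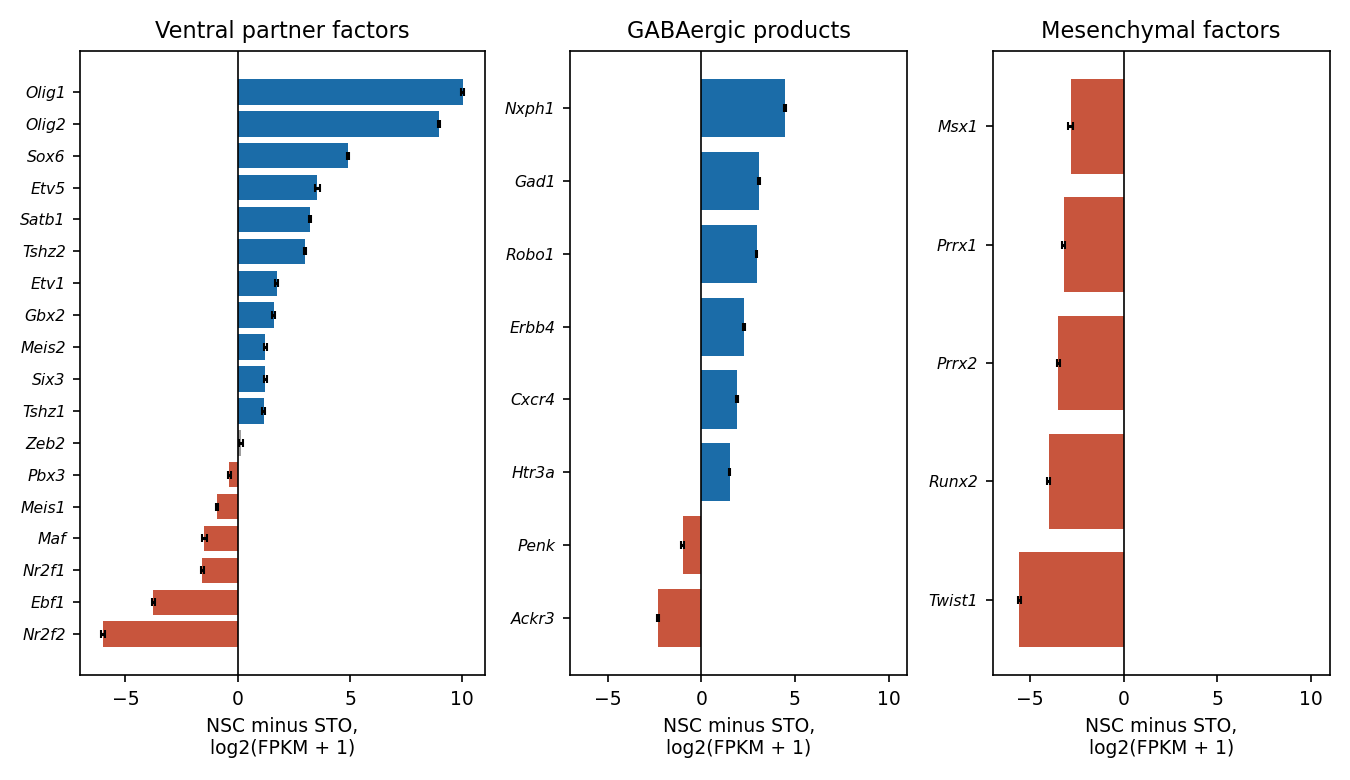
Difference NSC minus STO in log2(FPKM + 1) with its SE for 18 of the 23 ventral partner factors, 8 of the 9 GABAergic products and all 5 mesenchymal factors that passed the filter; the others are counted in the text and not reported here by name. Blue bars are genes called higher and red bars genes called lower in NSCs, and grey is not called. The mesenchymal factors all lie left of 0, and the partner factors lie on both sides.

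Among 19 close relatives of the family, 18 stayed below a mean of 1 FPKM in both cell types. The exception was Nkx2-2, a factor of the ventral neural tube and of oligodendrocyte precursors, which stood at 18.2 and 20.3 FPKM in NSCs and was listed at 0 in STO cells (difference 4.34, adjusted p = 1.176e-08). Dlx3 stood at 0.195 and 0.167 FPKM in NSCs and at 0.0170, 0 and 0 in STO cells. Dlx4 stood at 0.0175 and 0.0319 FPKM in NSCs and at 0.536, 0.723 and 0.783 in STO cells. Both stayed under the filter and were not tested.

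The NSCs came from cortex, so factors of the dorsal telencephalon were set beside the ventral ones. Of 18, 5 passed the filter, of which 3 were higher and 2 lower in NSCs, beside 43.7% and 41.9% of all genes tested. Their median difference was 2.62, or 2.54 with Pax6 set to 3 fragments in STO cells. Lhx2, which sets cortical identity, stood at 20.7 and 20.6 FPKM in NSCs and at 0.0386, 0 and 0 in STO cells. Dmrta2 stood at 12.1 and 10.5 FPKM in NSCs and between 0.301 and 0.336 in STO cells. Pax6, the dorsal factor opposed to Gsx2 at the border of cortex and lateral eminence, stood at 5.04 and 5.22 FPKM in NSCs and was listed at 0 in STO cells, so it lay below Gsx1 and above Gsx2 in both NSC libraries. Emx2 was lower in NSCs by 0.58 (adjusted p = 0.0004021), at 9.79 and 10.4 FPKM there and at 14.6, 15.4 and 17.0 in STO cells. Emx1, Eomes and Neurog1, defining genes of cortical progenitors singled out after their values were seen, did not exceed 0.0495 FPKM in any library. They do not stand for all 13 dorsal factors below the filter, which went both ways and were not tested. Neurog2 stood at 0.273 and 0.354 FPKM and Dmrt3 at 0.439 and 0.583 in NSCs, above every STO library. Lhx9 stood at 0.155 and 0.220 FPKM in NSCs and at 0.745, 0.865 and 0.808 in STO cells.

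Hedgehog signalling induces Nkx2-1 in the ventral forebrain. Of 13 pathway genes, 10 passed the filter, of which 2 were higher and 7 lower in NSCs, beside 43.7% and 41.9% of all genes tested. Their median difference was -1.003, against 0.023 over all genes tested. The 2 higher genes, named after their values were seen, were the ligand Shh at 1.48 and 1.35 FPKM in NSCs and 0 in STO cells (adjusted p = 5.701e-07), and Ptch1, its receptor and transcriptional target, at 17.7 and 17.2 FPKM against 4.59 to 4.78 (adjusted p = 3.334e-07). The coreceptor Gas1 stood at 37.9 and 39.1 FPKM in NSCs and at 360, 332 and 323 in STO cells (difference -3.10, adjusted p = 6.736e-08). The transducer Smo stood at 23.4 and 24.5 FPKM in NSCs and at 64.9, 60.6 and 57.4 in STO cells. Gli3, a zinc finger effector of the pathway, had the largest difference of the 10 tested, named after its value was seen, at 0.0830 and 0.162 FPKM in NSCs and 13.7, 14.0 and 11.1 in STO cells (difference -3.63, adjusted p = 2.768e-07). Gli1, a transcriptional target of the pathway like Ptch1, stayed below the filter and was not tested, at 0 and 0.0555 FPKM in NSCs and 0.412, 0.360 and 0.381 in STO cells. Ptch1 and Gli1 thus had their higher values in different cell types.

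The nearest listed genes on each side of the factors were then read, a set chosen by position after the factors' values were seen. Of the 17 tested, 3 were higher and 11 lower in NSCs and 3 were not called. Over all genes tested, the shares were 43.7% and 41.9%. The set holds Dlx1 and Dlx2 as neighbours of each other, and some of its genes are not reported here by name. Metap1d, a methionine aminopeptidase gene 4.25 kb from Dlx1, stood at 4.62 and 3.20 FPKM in NSCs and at 3.70, 3.78 and 3.997 in STO cells, and was not called (adjusted p = 0.9325). Its NSC replicates lay on either side of the STO libraries, so that the difference was -0.20 without NSC replicate 1 and 0.22 without NSC replicate 2 (adjusted p = 0.03874 and 0.03169). Itga6, an integrin gene on the far side of Dlx2, stood at 25.7 and 26.7 FPKM in NSCs and 19.9, 21.1 and 20.7 in STO cells (difference 0.34, adjusted p = 0.001015). Hat1, a histone acetyltransferase gene 87.8 kb from Dlx1 beyond Metap1d, stood at 39.8 and 43.1 FPKM in NSCs and 72.5, 68.8 and 77.0 in STO cells (difference -0.80, adjusted p = 5.556e-05). Hat1 was thus higher in STO cells as Dlx1, Dlx1as and Dlx2 were, and Itga6 was lower. At Lhx6, the neighbours Ndufa8 and Mrrf were not called (adjusted p = 0.4483 and 0.3894) and Rbm18 was higher in NSCs by 0.34 (adjusted p = 0.0154), a call that did not hold without NSC replicate 2 (0.23, adjusted p = 0.1509).

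Around Gsx1, Polr1d and Lnx2 were lower in NSCs by 0.29 and 0.40 (adjusted p = 0.009164 and 0.0008977), the opposite direction to Gsx1. Polr1d was no longer called without NSC replicate 1 or 2 (adjusted p = 0.07924 and 0.06308). Plut and Pdx1 were listed at 0 in all 5 libraries. Around Gsx2, Pdgfra, the growth factor receptor 74.4 kb away, stood at 30.4 and 30.1 FPKM in NSCs and at 344, 355 and 344 in STO cells (difference -3.48, adjusted p = 1.461e-08). Chic2, on the other side, was lower in NSCs by 1.24. Gsx2 was thus the only one of these 3 that was higher in NSCs. Inpp5a, whose locus overlaps Nkx6-2, stood at 10.8 and 10.8 FPKM in NSCs and at 16.1, 16.02 and 15.9 in STO cells, with Nkx6-2 listed at 0.

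**Figure D4:**
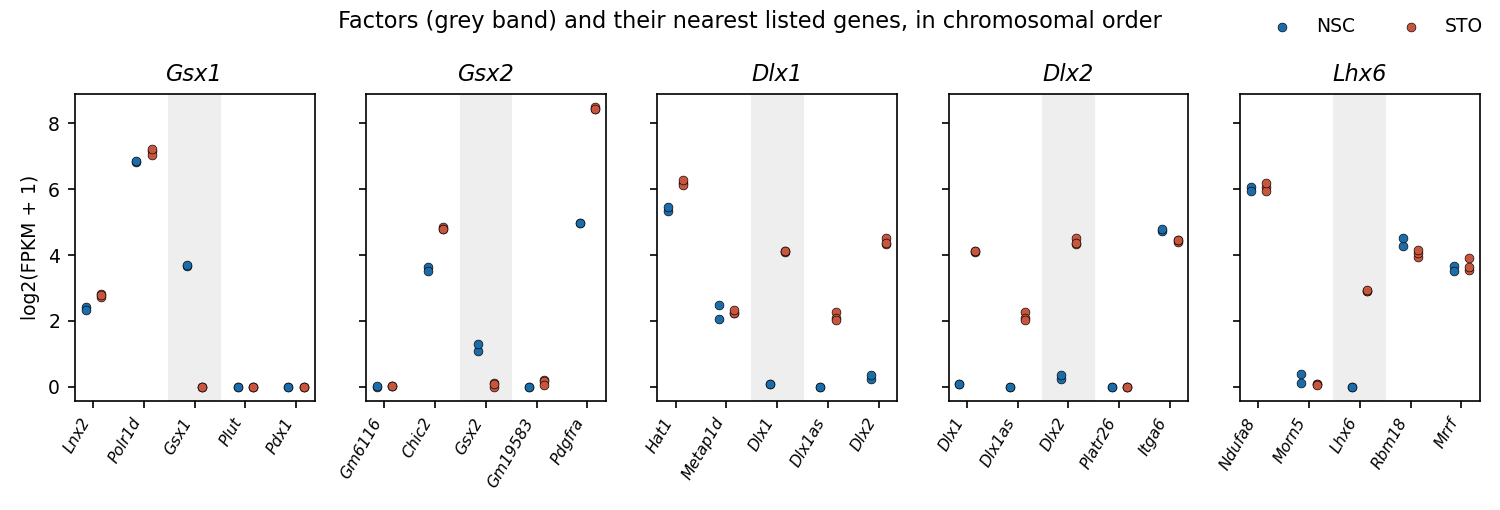
Level in log2(FPKM + 1) of the 5 factors above 1 FPKM (grey band) and of the 2 nearest listed genes on each side, in chromosomal order and not to distance, with 1 point per library for NSCs (blue, n = 2) and STO cells (red, n = 3). Dlx1, Dlx1as and Dlx2 are higher in STO cells, as is Hat1 by a smaller difference, Metap1d was not called and Itga6 is lower in STO cells, and Gsx2 is low beside Pdgfra, at 344 to 355 FPKM in STO cells.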

How the data were processed

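Poly(A) RNA of 2 NSC and 3 STO samples was made into stranded libraries and read as paired ends. The authors aligned reads to mm9 with HISAT2 and deposited FPKM values with confidence intervals from Cufflinks 2.2.1 for 40201 RefSeq transcripts; HISAT2 is given as version 4.8.2 in the submitters' processing notes. The files hold no read counts, and depth was inferred from the width of the intervals. Between 0 and 20 transcripts per library had a status that was not OK.

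Transcripts were named through RefSeq identifiers of GRCm38.p6 (39946 matched) and FPKM summed per symbol where loci overlapped. NSCs and STO cells were compared on log2(FPKM + 1) by lmFit and eBayes, the latter with a trend, of limma 3.58.1 (R 4.3.3). This scale understates changes of low genes. The fit held the 12293 genes with a mean of at least 1 FPKM in either cell type, with Benjamini-Hochberg adjustment over all of them and a threshold of 0.05. A gene low in 1 cell type entered only through the other, so counts and medians of lists partly reflect the filter. In simulated data with 200 of 12293 genes changed by 2 in log2, the fit recovered 197 and called 14 unchanged genes. The simulated cell types had equal spread and far fewer changed genes than were called here. It therefore does not test the share called in these data. Differences are NSC minus STO. The factors and gene lists were chosen with earlier results of these data known. Named genes were all 9 factors, genes of the partner, GABAergic, antisense, close relative and mesenchymal lists that passed the filter, the 4 highest of other lists and the 5 genes most like Gsx1; genes named outside this rule were chosen after their values were seen. Some genes that are counted in the lists are not reported here by name. An exact 0 can be a failed estimate, and floors of 3 fragments cover counting error only. Figures were drawn with matplotlib 3.10.9 in Python 3.11.15.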

Additional observations from a re-analysis of the deposited data

How the results depend on the processing

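Dlx1, Dlx2, Gsx1 and Lhx6 kept their direction and an adjusted p under 0.05 under all alternatives run, with differences from -6.63 to -3.99, -5.95 to -4.05, 3.66 to 6.90 and -5.99 to -2.12. Gsx2 ran from 0.33 to 3.25, and with quantile normalization 0.33 was no longer called (adjusted p = 0.1111); the cause was not tested. A required absolute difference of 1 left 2617 genes higher and 2103 lower in NSCs, against 5375 and 5153. Leaving out 1 replicate at a time gave 4900 to 5252 genes higher and 4704 to 5065 lower; without 1 NSC replicate the other was assumed to vary like STO cells. A replicate block in the fit gave 5250 genes higher and 4994 lower, and in it Dlx1 differed by -4.01, Dlx2 by -4.13, Gsx1 by 3.69, Gsx2 by 1.14 and Lhx6 by -2.90. The block changed no call of these 5. Same-numbered libraries correlated at 0.0075 and 0.061 in their deviations, with only 2 shared numbers, so they were taken to share a number only.

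With a pseudocount of 0.1 the untested differences became 0.28 for Dlx5, 0.53 for Dlx6 and 0.14 for Nkx2-1. Without 1 NSC replicate they ranged from 0 to 0.067 for Dlx5 and from 0 to 0.15 for Dlx6. Without the filter, adjusted p was 0.2598, 0.1955 and 0.4455 for Dlx5, Dlx6 and Nkx2-1. Of the 4 highest factors in NSCs, 3 to 4 kept their place when 1 NSC replicate was left out; without replicate 1, Dlx6 stood above Dlx1. For gene lists, alternatives were added after the data were seen. Without the filter, 15 GABAergic products were higher, and 9 dorsal factors were higher and 4 lower. Of all 17725 genes then tested, 6559 were higher and 5919 lower. At a mean of 0.1 FPKM, 13 GABAergic products were higher, and 7 dorsal factors were higher and 4 lower, as more genes were tested. Of all 14598 genes tested at that mean, 6388 were higher and 5797 lower. An absolute difference of 1 left 4 partner factors, 1 GABAergic product and 1 dorsal factor lower, beside 2103 of all 12293 genes tested. Of the 9 partner factors lower in NSCs, 7 and 8 were called without NSC replicates 1 and 2. Across scalings, the median over all genes moved from -0.037 to 0.075. With 2 NSC libraries, levels under 3 fragments cannot be told from 0.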

Other observations

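Genes of the glial and neuronal lineages, into which ventral progenitors give rise, were also read in the NSC libraries. Of 6 astrocyte markers, 6 were higher in NSCs, among them Aldoc at 155 and 150 FPKM against 0.130 to 0.196 in STO cells and Gfap at 15.9 and 16.9 FPKM against 0 to 0.0163. Of 8 oligodendrocyte lineage markers, 7 passed the filter, of which 6 were higher and 1, Pdgfra, lower in NSCs. Mbp, a myelin protein gene, stood at 83.4 and 88.3 FPKM in NSCs and at 0.0460 to 0.0722 FPKM in STO cells. Of 8 neuron markers, 6 passed the filter, of which 5 were higher in NSCs. The shares over all genes tested were 43.7% higher and 41.9% lower in NSCs. Tubb3 was not called, at 9.25 and 8.14 FPKM in NSCs and 8.57, 7.84 and 8.49 FPKM in STO cells (limma adjusted p = 0.4767). Map2 stood at 100 and 102 FPKM in NSCs and at 4.19 to 4.48 in STO cells.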
